A study of Mus musculus with 12 samples.

Results

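H3B-6527, a small molecule that inhibits the receptor tyrosine kinase FGFR4, was compared as a single agent with vehicle in xenografts of Hep3B, a cell line from a human hepatocellular carcinoma. The comparison used 6 of the 12 RNA sequencing libraries of the series: the 3 tumors of mice given H3B-6527 and the 3 tumors of mice given vehicle. The other 6 libraries came from mice given lenvatinib, a multikinase inhibitor that blocks VEGF and FGF receptors among others, at 10 mg/kg, or both agents together, and entered 1 fit with these. Hep3B cells in medium with serum and Matrigel had been placed under the skin of the right flank of female BALB/c nu/nu mice about 8 weeks old, an athymic strain that lacks mature T cells. Mice were randomized at a mean tumor volume of about 500 mm3, with 3 mice per group. H3B-6527 was given at 300 mg/kg by oral gavage once a day, and tumors were collected 8 hours after dose 4. All tumors thus came from 1 cell line in an immunodeficient host, at 1 dose and 1 time, and RNA was taken from fragments of whole tumors. Expression values are CPM, counts scaled to an effective library size of 1 M (mega) with edgeR's TMM factors, and the 3 values of a group are always given in the order of tumors 1, 2 and 3.

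FGFR4 is the main FGF receptor of hepatocytes. Its ligand FGF19 is a hormone of the intestine that binds FGFR4 together with the co-receptor beta-klotho (KLB), signals through the adaptor FRS2 to RAS and the ERK MAP kinases, and represses CYP7A1, the enzyme that sets the pace of bile acid production. Some hepatocellular carcinomas, Hep3B among them, make FGF19 themselves and depend on this receptor for growth.

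The 3 vehicle libraries held 34.4, 36.9 and 35.9 M counts and the 3 H3B-6527 libraries 40.4, 38.9 and 23.8 M. Of 36292 human gene symbols, 15836 had enough counts to be tested. All 8 hepatocellular tumor markers were present, and their summed level was 78545 to 86272 CPM in vehicle tumors and 126581 to 188205 CPM in H3B-6527 tumors. Defining markers of host cell types, counted under human symbols, were sparse. Of 10 endothelial markers 9 lay under 1 CPM. PLVAP (endothelium), C1QA, C1QB and S100A8 (macrophages and neutrophils) and KRT1 (skin) had no counts in the 6 libraries. The 10 fibroblast markers summed to 50.3 to 56.1 CPM with vehicle and 27.1 to 36.9 CPM with H3B-6527, and the 6 pericyte and smooth muscle markers to 26.3 to 30.2 and 16.4 to 20.3 CPM. The 11 macrophage and leukocyte markers summed to 195 to 212 CPM and 147 to 203 CPM, mostly through LYZ and CD68. LYZ (lysozyme) fell (log2 fold change −3.53 ± 0.36 (SE), edgeR adjusted p = 1.61e-05) and CD68 rose (0.75 ± 0.16), while PLIN1, a coat protein of lipid droplets listed as an adipocyte marker, was at 3.69, 3.49 and 3.18 CPM with vehicle and 70.9, 41.6 and 27.9 CPM with H3B-6527. The fibroblast markers COL1A2 and PDGFRB fell by 1.49 and 0.69 on the log2 scale; PDGFRB, a receptor that pericytes also carry, was most of the fibroblast sum, at 41.2, 47.97 and 42.3 CPM with vehicle and 33.2, 23.9 and 24.4 CPM with H3B-6527. The host is mouse, the table lists human symbols, and the handling of mouse reads is not given. These levels therefore do not measure the amount of host cells. Whether the reads came from tumor or host cells was not tested. In bulk tumor RNA, fewer cells of a type and less RNA per cell cannot be told apart.

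The 3 H3B-6527 tumors differed from each other more than the 3 vehicle tumors did. The biological coefficient of variation (n = 3) was 8.16% among vehicle tumors and 21.5% among H3B-6527 tumors. Between pairs of vehicle tumors 2.78% to 3.29% of genes differed by over 2-fold, against 4.39% to 11.6% between pairs of H3B-6527 tumors. H3B-6527 tumor 1 lay farthest from the vehicle mean in 79.0% of the 1445 genes that rose by 2-fold or more and in 61.7% of the 1192 that fell by as much. H3B-6527 tumor 3, the library with the fewest counts, lay nearest in 72.7% and 67.1%. These genes were chosen with the same tumors, so the shares are a description. Another set of 1824 genes was chosen by comparing combination with lenvatinib tumors, within the fit of all 12 libraries. The order was the same. For those chosen as higher, the median shift from the vehicle mean was 1.93, 1.54 and 1.20 on the log2 scale in H3B-6527 tumors 1, 2 and 3. For those chosen as lower it was −1.90, −1.66 and −1.34.

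With H3B-6527, 3987 genes were higher (25.2% of those tested) and 3842 lower (24.3%) at an adjusted p under 0.05 (edgeR's quasi-likelihood test with Benjamini-Hochberg adjustment). At 2-fold or more, 1445 genes (9.12%) rose and 1192 (7.53%) fell. All 3 H3B-6527 tumors lay above all 3 vehicle tumors in 4446 genes (28.1%) and below them in 4417 (27.9%). Without H3B-6527 tumor 1 the counts were 3435 higher and 3365 lower, and without tumor 3 they were 4175 and 4211. With library totals alone as the scale, the split moved to 3022 higher and 4960 lower, with the median of all genes at −0.11 on the log2 scale in place of 0.01. Since nearly 1 tested gene in 2 passed (49.4%), each count of list members below is to be read against 25.2% and 24.3%.

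**Figure D1:**
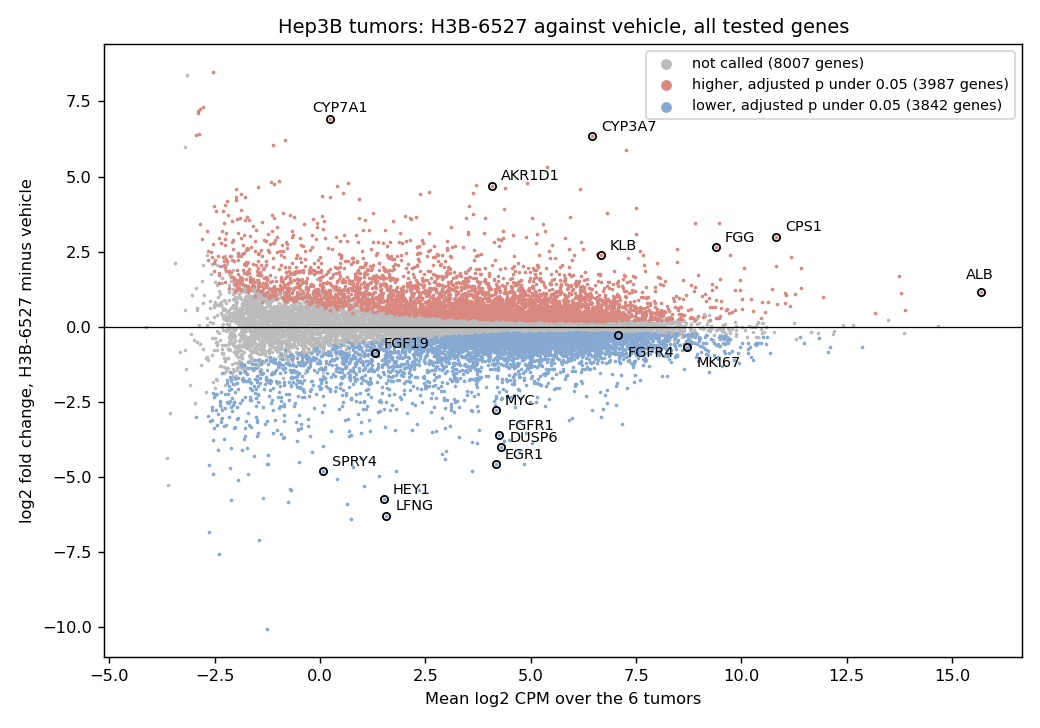
Log2 fold change (H3B-6527 minus vehicle, vertical axis) of the 15836 tested genes against their mean log2 CPM over the 6 tumors (horizontal axis); each point is a gene, coloured by its call at an adjusted p under 0.05. The 3987 higher and 3842 lower genes spread over the whole range of levels, with CYP7A1 and CYP3A7 near the top and LFNG and HEY1 near the bottom.

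The receptor axis itself changed member by member. FGF19, the ligand, was at 3.66, 3.41 and 3.39 CPM with vehicle and 0.694, 2.195 and 2.89 CPM with H3B-6527. All 3 treated tumors lay below the vehicle tumors, but tumor 1 far more than the others, and the difference did not pass (log2 fold change −0.89 ± 0.38 (SE), edgeR adjusted p = 0.0710). It passed without H3B-6527 tumor 3 (−1.28, adjusted p = 0.0144), with DESeq2 (0.0458), with library totals (0.0445) and with voom (0.0212). FGFR4, the target of the drug, was at 158, 137 and 154 CPM with vehicle and 103, 132 and 135 CPM with H3B-6527. It was slightly lower (log2 fold change −0.28 ± 0.10 (SE), edgeR adjusted p = 0.0353), a call lost without vehicle tumor 1 or 3 or H3B-6527 tumor 1 (adjusted p = 0.124, 0.0990 and 0.115). KLB, the co-receptor, rose from 44.5, 44.3 and 48.2 CPM to 329, 215 and 163 CPM (log2 fold change 2.37 ± 0.20 (SE), edgeR adjusted p = 4.55e-06). Every treated tumor was more than 3-fold above every vehicle tumor.

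The other FGF receptors went in different directions. FGFR1 was at 67.9, 65.9 and 72.3 CPM with vehicle and 2.804, 5.58 and 8.92 CPM with H3B-6527 (log2 fold change −3.61 ± 0.33 (SE), edgeR adjusted p = 7.49e-06), and FGFR2 at 67.7, 94.2 and 88.1 CPM with vehicle and 30.3, 25.4 and 28.6 CPM with H3B-6527 (log2 fold change −1.57 ± 0.17 (SE), edgeR adjusted p = 1.58e-05). In both genes the groups were far apart, and for FGFR1 treated tumor 1 was the lowest. FGFR3 rose by a small amount (0.41 ± 0.11), the decoy-like receptor FGFRL1 fell (−0.74 ± 0.12), and the docking protein GAB1 rose (0.98 ± 0.12). In all, 5 of the 13 tested members of the axis were higher, 4 lower and 4 did not pass, with a median of 0.17 (0.073 without vehicle tumor 1, 0.10 without H3B-6527 tumor 1 and 0.046 with library totals).

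Negative feedback regulators of RAS-ERK signalling, which the pathway itself switches on, had the lowest median of the 51 gene lists. Of 9 tested Sprouty and SPRED feedback genes 6 fell and 1 rose (24.3% and 25.2% of all genes), and their median was −2.19 against 0.01 for all genes. SPRY4, a Sprouty protein that blocks RAS activation, was at 4.97, 5.02 and 5.04 CPM with vehicle and 0.0772, 0.108 and 0.419 CPM with H3B-6527. Treated tumors 1 and 2 were near the floor of 3 counts (0.0772 and 0.0813 CPM) and tumor 3 above it (0.126 CPM). The groups together held 567 and 17 counts, a ratio of 29.4-fold lower with a 95% interval of 18.2 to 50.8 (exact binomial, counting error only), and the fitted value was −4.80 ± 0.57. SPRY1 and SPRY2 changed by −3.36 and −2.29, and SPRED1 and SPRED2, which hold the RAS GTPase activator neurofibromin at the membrane, by −2.80 and −2.19. PEBP1, an inhibitor of RAF, rose (0.92 ± 0.15). The 2 members that did not pass, SPRY3 and IL17RD, lay between −0.69 and −0.21.

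The phosphatases that remove phosphate from MAP kinases split by member. DUSP6, the ERK-specific phosphatase used as a readout of FGF signalling, was at 77.7, 92.9 and 71.1 CPM with vehicle and 2.701, 5.07 and 7.62 CPM with H3B-6527 (log2 fold change −4.01 ± 0.39 (SE), edgeR adjusted p = 1.13e-05). DUSP5, a nuclear ERK phosphatase, went from 35.3, 32.03 and 30.4 CPM to 0.489, 0.705 and 1.17 CPM (log2 fold change −5.44 ± 0.71 (SE), edgeR adjusted p = 0.000118). Both sets of tumors were separate, and treated tumor 1 was the lowest and tumor 3 the highest of its group in each. DUSP4 also fell, on 80 and 7 counts (10.1-fold lower, exact 95% interval 4.67 to 25.8). DUSP9 and DUSP10 rose by 0.99 and 0.63. Of 10 tested phosphatases 3 fell, 2 rose and 5 did not pass (−0.36 to 0.36). Without H3B-6527 tumor 3, 5 fell.

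Transcription factors downstream of ERK were lower. ETV5 and ETV4 are ETS factors induced by FGF signals. ETV5 was at 49.3, 49.4 and 52.6 CPM with vehicle and 3.42, 3.14 and 3.81 CPM with H3B-6527 (log2 fold change −3.87 ± 0.29 (SE), edgeR adjusted p = 2.53e-06). ETV4 went from 17.96, 16.7 and 18.4 CPM to 0.926, 2.900 and 4.77 CPM (log2 fold change −2.68 ± 0.43 (SE), edgeR adjusted p = 0.000348). The treated tumors were alike for ETV5, whereas for ETV4 tumor 1 was well below tumor 3. The ternary complex factor ELK3 and the factor ETS2 fell by 1.56 and 0.93 on the log2 scale. Of 8 tested ETS factors 7 fell and none rose (median −1.05), and ELF3 did not pass.

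Of 18 tested immediate early genes, which respond to growth factors within minutes, 15 fell and none rose (median −1.14). EGR1, a zinc finger factor at the end of the ERK pathway, was at 91.8, 103 and 83.7 CPM with vehicle and 2.08, 2.63 and 7.497 CPM with H3B-6527 (log2 fold change −4.58 ± 0.76 (SE), edgeR adjusted p = 0.000653). IER3 went from 64.3, 57.7 and 70.1 CPM to 2.03, 1.87 and 3.18 CPM (log2 fold change −4.80 ± 0.47 (SE), edgeR adjusted p = 1.21e-05). All treated tumors were more than 10-fold below every vehicle tumor in both genes. FOS, a subunit of AP-1, fell by 3.55, the orphan receptor NR4A1 by 3.11 and IER5L by 3.96 on the log2 scale. Tumor medians of this list were nearly equal (−1.23, −1.24 and −1.21 in H3B-6527 tumors 1, 2 and 3), unlike those of most other lists.

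MYC, a growth-promoting transcription factor, was at 48.3, 46.2 and 47.1 CPM with vehicle and 5.27, 7.13 and 8.38 CPM with H3B-6527 (log2 fold change −2.78 ± 0.17 (SE), edgeR adjusted p = 4.91e-07). No treated tumor came near the vehicle range. Its relative MYCN fell on 163 and 16 counts (8.97-fold lower, exact 95% interval 5.36 to 16.1), and the MAX-like partner MLX fell by 0.67. MLXIPL, also known as ChREBP, a carbohydrate-sensing factor of liver that pairs with MLX, rose from 172, 157 and 146 CPM to 439, 419 and 319 CPM (1.31 ± 0.13). In the MYC network 8 of 13 genes fell and 1 rose (median −0.47). Without H3B-6527 tumor 1, 2 rose. CCND1, the cyclin D1 gene that growth factor signals induce, was at 58.9, 44.8 and 57.2 CPM with vehicle and 9.57, 12.7 and 16.3 CPM with H3B-6527 (log2 fold change −2.07 ± 0.22 (SE), edgeR adjusted p = 1.61e-05).

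**Figure D2:**
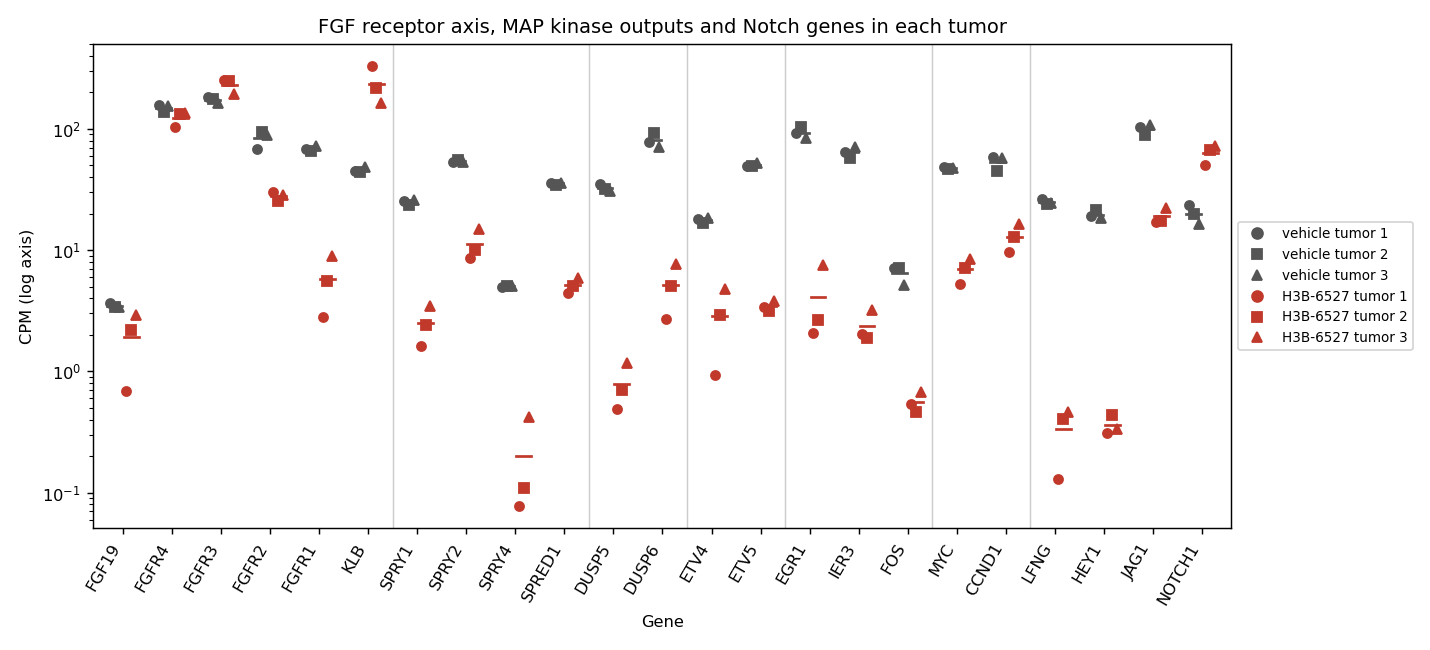
CPM on a log axis (vertical) of 23 genes of FGF, MAP kinase and Notch signalling (horizontal) in each of the 3 vehicle and 3 H3B-6527 tumors; symbols are single tumors and short bars group means. DUSP5, EGR1, LFNG and HEY1 show gaps of more than 10-fold between the groups, whereas FGFR4 and FGFR3 lie close together.

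Ligands and receptors of other growth factor pathways changed in both directions. Among ligands of EGF receptors, AREG (amphiregulin) was at 14.8, 12.03 and 18.5 CPM with vehicle and 1.16, 0.894 and 2.26 CPM with H3B-6527 (log2 fold change −3.45 ± 0.42 (SE), edgeR adjusted p = 5.08e-05). EREG (epiregulin) fell by 2.51, and NRG1 fell on 54 and 13 counts (3.66-fold lower, exact 95% interval 1.97 to 7.31). NRG3 (1.40 ± 0.14) and BTC (1.23 ± 0.32, 40 and 81 counts) rose, so that 3 of 6 tested ligands fell and 2 rose. Of 12 other receptor tyrosine kinases and their ligands, 6 fell and 3 rose (median −0.66). HGF, the ligand of MET, fell from 3.91, 3.34 and 3.78 CPM to 0.206, 0.379 and 0.419 CPM (log2 fold change −3.48 ± 0.36 (SE), edgeR adjusted p = 8.32e-06). The ephrin receptor EPHA2 (−3.17), PDGFRA (−1.58) and IGF1R (−0.62) also fell.

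EGFR rose from 312, 301 and 297 CPM to 573, 466 and 411 CPM (log2 fold change 0.67 ± 0.11 (SE), edgeR adjusted p = 0.000212), with treated tumor 1 the highest and no overlap between the groups. ERBB2 (0.79 ± 0.23) and INSR, the insulin receptor (0.39 ± 0.12), rose as well. The ERBB2 call was lost with no filter on low counts (adjusted p = 0.0610). The INSR call was lost without vehicle tumor 1 or 3 (adjusted p = 0.0604 and 0.0732), in a fit of the 6 libraries alone (0.0582) and with library totals (0.0780). Of 8 tested VEGF and PDGF family ligands, which act on vessels and stroma, PDGFA (−1.47), PDGFD (−1.28) and PGF (−0.76) fell and PDGFB rose (1.14). VEGFA, the main angiogenic ligand, was at 87.6, 107 and 84.2 CPM with vehicle and 72.5, 80.3 and 79.2 CPM with H3B-6527, and did not pass (log2 fold change −0.26 ± 0.14 (SE), edgeR adjusted p = 0.128). With library totals it was called lower (−0.38, adjusted p = 0.0412).

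The 2 leading genes of the 15 largest falls belong to the Notch pathway, a contact-dependent signal between neighbouring cells. LFNG, a glycosyltransferase that tunes Notch receptors, was at 26.2, 23.8 and 24.4 CPM with vehicle and 0.129, 0.407 and 0.461 CPM with H3B-6527 (log2 fold change −6.29 ± 0.69 (SE), edgeR adjusted p = 3.12e-05). On 2803 and 31 counts it was 79.6-fold lower (exact 95% interval 56.0 to 117). HEY1, a repressor switched on by Notch, went from 19.04, 21.6 and 18.2 CPM to 0.309, 0.434 and 0.335 CPM (log2 fold change −5.75 ± 0.52 (SE), edgeR adjusted p = 7.08e-06). Treated tumor 1 was the lowest in both genes, and all 3 treated tumors were under 1 CPM. JAG1, a Notch ligand, fell from 104, 89.3 and 108 CPM to 17.1, 17.2 and 22.4 CPM, and MFNG, another fringe enzyme, fell by 1.67. NOTCH1 itself rose from 23.7, 19.97 and 16.3 CPM to 50.03, 66.5 and 72.7 CPM (log2 fold change 1.66 ± 0.21 (SE), edgeR adjusted p = 7.19e-05), as did DTX4 (1.37) and RFNG (0.63). The list held 15 tested genes, of which 7 fell and 3 rose (median −0.84).

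Of 15 tested WNT target genes 7 fell and 2 rose, with a median of −0.40. The median was −0.46, −0.54 and −0.19 without vehicle tumor 1, 2 and 3, and −0.52 with library totals. LGR5, a WNT-enhancing receptor of stem cells, fell from 59.5, 56.2 and 69.3 CPM to 8.44, 9.89 and 11.1 CPM (log2 fold change −2.66 ± 0.21 (SE), edgeR adjusted p = 2.07e-06). The WNT antagonist DKK1 (−2.36) and the feedback inhibitor NKD1 (−2.44) fell. RHBG, an ammonium transporter of hepatocytes around the central vein, rose from 1.201, 1.22 and 0.919 CPM to 17.03, 14.1 and 11.4 CPM (log2 fold change 3.67 ± 0.31 (SE), edgeR adjusted p = 3.29e-06), with no overlap and more than a 9-fold gap. DKK4 rose too (1.16 ± 0.31).

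A list of 14 genes held the co-activators YAP1 and WWTR1, their partners TEAD1 to TEAD4, and target genes of these factors. Of the 14, 9 fell and none rose (median −0.995). YAP1, TEAD1, TEAD2 and TEAD4 were among the 9. Without H3B-6527 tumor 2, 1 rose. CYR61 and CTGF are secreted matrix proteins that report YAP activity. CYR61 was at 23.7, 20.5 and 22.1 CPM with vehicle and 3.68, 3.77 and 4.52 CPM with H3B-6527 (−2.48 ± 0.15), and CTGF went from 16.4, 14.7 and 18.3 CPM to 2.65, 1.84 and 2.47 CPM (−2.83 ± 0.26). The 3 treated tumors differed little. YAP1 itself (−0.91) and the transmembrane protein CRIM1 (−1.45) fell. Of 15 actin and SRF target genes 8 fell and 1 rose. FLNA (filamin), TPM4 (tropomyosin), CNN2 (calponin) and MYH9 (non-muscle myosin) fell by 1.69, 1.64, 0.85 and 0.76 on the log2 scale, and TPM1 rose (0.32 ± 0.07). The number that rose was 2 without H3B-6527 tumor 2 and 3 without tumor 3.

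Further genes among the 15 largest falls had varied roles. GDF15, a stress-induced hormone, was at 35.02, 34.8 and 36.3 CPM with vehicle and 1.18, 1.44 and 2.64 CPM with H3B-6527 (log2 fold change −4.40 ± 0.44 (SE), edgeR adjusted p = 1.43e-05). Treated tumor 3 was the highest of its group and still more than 10-fold below the lowest vehicle tumor. FJX1 (−5.30), the phosphatase UBASH3B (−4.96), TMEM59L (−4.79), the amino acid transporter SLC6A14 (−4.24), the calcium-binding protein TESC (−4.16) and the integrin ITGA10 (−4.12) also fell, without overlap.

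Transcripts of most bile acid synthesis enzymes rose. Of 16 tested enzymes 11 were higher and none lower, with a median of 0.86. CYP7A1, the first and rate-limiting enzyme of the classical route, had 2, 5 and 3 counts in the vehicle tumors and 598, 469 and 111 in the H3B-6527 tumors. The ratio was 134-fold higher, with an exact 95% interval of 72.5 to 280 from these few vehicle counts (fitted log2 fold change 6.91 ± 0.63 (SE), edgeR adjusted p = 6.95e-06). Treated tumors 1 and 2 were alike and tumor 3 was lower. CYP8B1, the sterol 12-alpha-hydroxylase that sets the kind of bile acid made, was at 0.279, 0.408 and 0.0263 CPM with vehicle and 2.83, 1.003 and 0.921 CPM with H3B-6527, on 27 and 169 counts (7.11-fold higher, exact 95% interval 4.71 to 11.1). AKR1D1, which reduces the steroid ring, rose from 4.47, 2.68 and 3.49 CPM to 151, 77.4 and 44.9 CPM (log2 fold change 4.69 ± 0.47 (SE), edgeR adjusted p = 1.74e-05). The order of tumors was 1, 2, 3 in all of these, and the lowest treated tumor exceeded the highest vehicle tumor. CYP27A1, which starts the alternative route, and AMACR, which acts on the side chain in peroxisomes, rose by 1.51 and 1.23. The 5 enzymes that did not pass, CYP7B1 and BAAT among them, lay between −0.23 and 0.21.

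The bile acid receptor FXR (NR1H4) and its main target diverged. NR1H4 rose from 53.4, 50.8 and 56.5 CPM to 143, 114 and 92.5 CPM (log2 fold change 1.12 ± 0.13 (SE), edgeR adjusted p = 2.01e-05). NR0B2 (SHP), a repressor that FXR induces and that holds CYP7A1 down, fell from 29.7, 33.7 and 23.5 CPM to 3.58, 5.04 and 9.42 CPM (log2 fold change −2.30 ± 0.33 (SE), edgeR adjusted p = 0.000164). Neither gene overlapped between the groups, and treated tumor 1 was the most changed in both. The basolateral exporter ABCC3 rose (1.51 ± 0.19). The uptake carrier SLCO1B3 (−0.97 ± 0.13) and SLC51B (−1.83 ± 0.40), a subunit of an exporter that FXR induces, fell. In this list of FXR and bile acid transport genes 9 of 14 rose and 3 fell. The largest change of the list was a rise, that of the transporter gene ABCB11 (4.77 ± 1.08, 11 and 299 counts). ABCB4 rose by 0.56. The fall of NR0B2 and SLC51B therefore does not stand for the list.

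Enzymes of drug and fatty acid metabolism were higher as well. Of 26 tested genes, the cytochrome P450 genes and their reductase POR, 15 rose, 1 fell and 10 did not pass (median 0.98). POR was among those that rose. CYP3A7, the fetal liver form of CYP3A, was at 12.5, 11.6 and 11.3 CPM with vehicle and 1913, 782 and 177 CPM with H3B-6527 (log2 fold change 6.34 ± 0.80 (SE), edgeR adjusted p = 0.000110). The rise was found in all 3 treated tumors but differed more than 10-fold between tumors 1 and 3. CYP4F3, an omega-hydroxylase of leukotrienes and fatty acids, rose from 6.76, 7.11 and 3.91 CPM to 236, 136 and 113 CPM (log2 fold change 4.77 ± 0.33 (SE), edgeR adjusted p = 1.57e-06). CYP4F12, CYP3A5 and CYP2D6 rose by 4.44, 1.95 and 1.43. CYP2B6, which the receptor CAR induces, fell from 10.3, 15.6 and 11.4 CPM to 1.11, 2.76 and 5.95 CPM (log2 fold change −1.98 ± 0.42 (SE), edgeR adjusted p = 0.00238). NR1I3, the gene of CAR itself, rose (1.60 ± 0.34). Reads of CYP3A, CYP4F and CYP2D genes can be shared among near-identical copies, and CYP3A7 has a read-through gene in the table, so the split between these members is uncertain.

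GSTA1, a glutathione transferase of hepatocytes, rose from 9.13, 6.803 and 7.07 CPM to 569.8, 258 and 82.3 CPM (log2 fold change 5.31 ± 0.72 (SE), edgeR adjusted p = 0.000170), with the same order of tumors. GSTA4, GSTM2, the bile acid and steroid sulfotransferase SULT2A1 and UGT2A3 rose by 1.57, 2.18, 1.74 and 0.65. MGST2 and GSTO1 fell by 0.86 and 0.90. Over the 30 tested conjugating enzymes, 13 rose and 6 fell, and the median was only 0.16. Of 21 alcohol and aldehyde dehydrogenases 14 rose and 2 fell (median 0.73). ADH1A, which oxidizes ethanol, went from 20.5, 16.4 and 16.4 CPM to 283, 258 and 127 CPM (log2 fold change 3.65 ± 0.28 (SE), edgeR adjusted p = 2.85e-06), and ADH1B rose by 4.42. The GSTA and ADH1 genes have close copies too. ALDH8A1 (1.49) and the mitochondrial ALDH6A1 (1.75) rose, while ALDH1B1 (−1.13) and ALDH4A1 of proline breakdown (−0.79) fell.

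Among factors that set hepatocyte identity the change was mixed: of 17 tested, 5 rose, 3 fell and 9 did not pass. Their median was −0.02 (0.03 without H3B-6527 tumor 1, −0.14 with library totals). HNF4A, the central hepatocyte nuclear receptor, rose from 319, 281 and 299.9 CPM to 502, 486 and 418 CPM (log2 fold change 0.64 ± 0.09 (SE), edgeR adjusted p = 9.93e-05). CEBPA rose by 1.04 and ONECUT1 by 1.55, whereas its relative ONECUT2 (−1.07), GATA6 (−0.54) and CEBPD (−1.35) fell. The CEBPD call rested on 85 and 28 counts and was lost without vehicle tumor 1 or 2 or H3B-6527 tumor 2 (adjusted p = 0.0696, 0.0777 and 0.0849) and in a fit of the 6 libraries alone (0.0767). Nuclear receptors rose in 15 of 23 cases and fell in 4 (median 0.90). PPARA, which drives fatty acid oxidation, rose from 47.8, 49.9 and 39.1 CPM to 179.9, 129 and 96.1 CPM (log2 fold change 1.57 ± 0.19 (SE), edgeR adjusted p = 5.36e-05). RXRA, the shared partner receptor, the thyroid hormone receptor THRB, the glucocorticoid receptor NR3C1 and ESRRG rose by 1.08, 1.20, 1.27 and 1.76. PPARG (−0.41) and the clock receptor NR1D1 (−0.66) fell.

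Albumin and the oncofetal genes rose together in most cases. ALB was at 36558, 35523 and 34105 CPM with vehicle and 91849, 84389.9 and 60487 CPM with H3B-6527 (log2 fold change 1.16 ± 0.17 (SE), edgeR adjusted p = 0.000130). AFP, alpha-fetoprotein, a fetal serum protein and tumor marker, was at 10332, 9607 and 9272 CPM with vehicle and 25387, 22858 and 15425 CPM with H3B-6527 (log2 fold change 1.12 ± 0.20 (SE), edgeR adjusted p = 0.000553), and GPC3, a surface proteoglycan of hepatocellular carcinoma, at 1469, 1646 and 1379.6 CPM with vehicle and 3678, 3224 and 2359 CPM with H3B-6527 (log2 fold change 1.04 ± 0.15 (SE), edgeR adjusted p = 0.000112). The 3 genes shared the order of treated tumors 1, 2, 3, and none overlapped the vehicle tumors. GC, the vitamin D binding protein (1.30), AFM (3.64) and the imprinted gene PEG10 (1.11) rose. LIN28B, which blocks the let-7 microRNAs, DLK1, a marker of hepatoblasts, and SALL4, a fetal liver factor, fell by 1.34, 1.01 and 0.60. In this list 9 of 14 rose and 4 fell.

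Transcripts of many secreted plasma proteins rose. Of 24 tested protease inhibitors and cystatins 18 rose and 2 fell (median 1.16). KNG1, kininogen, was at 144, 164 and 139 CPM with vehicle and 2289, 1618 and 994 CPM with H3B-6527 (log2 fold change 3.46 ± 0.27 (SE), edgeR adjusted p = 2.60e-06). HRG, the histidine-rich glycoprotein, went from 3.94, 5.401 and 3.78 CPM to 156, 107 and 61.6 CPM (log2 fold change 4.62 ± 0.31 (SE), edgeR adjusted p = 1.40e-06), and FETUB, fetuin B, from 2.43, 3.26 and 2.39 CPM to 119, 63.99 and 31.2 CPM (log2 fold change 4.73 ± 0.49 (SE), edgeR adjusted p = 2.11e-05). Every treated tumor lay more than 6-fold above every vehicle tumor in these genes. SERPINF2 (antiplasmin) and SERPINA4 (kallistatin) rose by 1.95 and 1.42. ITIH2, which carries hyaluronan, fell (log2 fold change −1.13 ± 0.25 (SE), edgeR adjusted p = 0.00261).

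Apolipoproteins and their assembly factors rose in 13 of 21 cases and fell in 4 (median 0.94). The number that fell was 2 without vehicle tumor 1 or 3 or H3B-6527 tumor 1. APOC3, an inhibitor of triglyceride clearance, rose from 52.9, 50.3 and 43.1 CPM to 1101, 837 and 331 CPM (log2 fold change 3.96 ± 0.42 (SE), edgeR adjusted p = 1.83e-05). APOA1, the main protein of HDL, rose from 997, 956 and 809 CPM to 4106, 4602 and 2509 CPM (log2 fold change 2.02 ± 0.20 (SE), edgeR adjusted p = 8.17e-06), and here treated tumor 2 was the highest. APOA5, APOH and MTTP, the lipid transfer protein that loads APOB, rose by 3.61, 1.23 and 0.94. APOA2, also of HDL, was at 6295, 5753 and 5627 CPM with vehicle and 1709, 4811 and 3367 CPM with H3B-6527 (log2 fold change −0.84 ± 0.26 (SE), edgeR adjusted p = 0.0194). Tumor 1 was the lowest and tumor 2 the nearest to vehicle. The APOA2 call was lost without vehicle tumor 1 (adjusted p = 0.0574), with no filter (0.0740) and in a fit of the 6 libraries alone (0.0739). APOM fell by 0.79.

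Of 18 complement genes 13 rose and 2 fell (median 1.07). The number that fell was 1 without vehicle tumor 2 or 3 or H3B-6527 tumor 2. C1S, a protease of the first complement component, was at 16.7, 16.1 and 15.7 CPM with vehicle and 702, 329.8 and 141 CPM with H3B-6527 (log2 fold change 4.60 ± 0.53 (SE), edgeR adjusted p = 5.23e-05), and its partner C1R at 2.85, 3.54 and 3.36 CPM with vehicle and 58.1, 40.4 and 22.2 CPM with H3B-6527 (log2 fold change 3.63 ± 0.32 (SE), edgeR adjusted p = 5.89e-06). The vehicle tumors were nearly equal, and the treated tumors were ordered 1, 2, 3 from the top. CFI, C2 and MASP2 rose by 1.74, 1.33 and 1.28, while C8A of the membrane attack complex fell (−0.70 ± 0.18). Of 20 coagulation genes 15 rose and none fell (median 1.38, the highest of the 51 lists). The fibrinogen chain FGG rose from 289, 293 and 261 CPM to 2550.5, 1709 and 982 CPM (log2 fold change 2.64 ± 0.29 (SE), edgeR adjusted p = 2.15e-05), FGA by 2.38, factor XII (F12) by 2.05 and factor VII (F7) by 1.30.

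Among 18 iron and heme genes 9 rose and 2 fell, 1 without vehicle tumor 1, 2 or 3 or H3B-6527 tumor 2. TF, transferrin, the iron carrier of plasma, was at 8083, 8478 and 6668 CPM with vehicle and 32856, 25170.5 and 17083 CPM with H3B-6527 (log2 fold change 1.69 ± 0.20 (SE), edgeR adjusted p = 2.78e-05). Hemopexin (HPX), which binds free heme, rose from 69.95, 58.8 and 63.4 CPM to 704, 561 and 351 CPM (log2 fold change 3.07 ± 0.25 (SE), edgeR adjusted p = 3.41e-06). TMPRSS6, a suppressor of hepcidin, and the iron exporter SLC40A1 rose by 2.40 and 1.17. Ceruloplasmin (CP) was lower (−0.51 ± 0.16), a call lost without vehicle tumor 2 or H3B-6527 tumor 2 (adjusted p = 0.0793 and 0.0574). Of 13 acute phase and IL6 signalling genes 11 rose and none fell (median 0.96). HP, haptoglobin, rose from 5.58, 4.13 and 4.44 CPM to 105, 43.2 and 23.4 CPM (log2 fold change 3.61 ± 0.57 (SE), edgeR adjusted p = 0.000457), and SAA4, the antimicrobial peptide LEAP2 and the receptor IL6R by 1.92, 2.32 and 1.37. TTR, transthyretin, rose by 1.24. Outside the lists, the ethanolamine kinase ETNK2 (4.03) and the sodium channel SCN7A (3.91) were among the 15 largest rises.

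**Figure D3:**
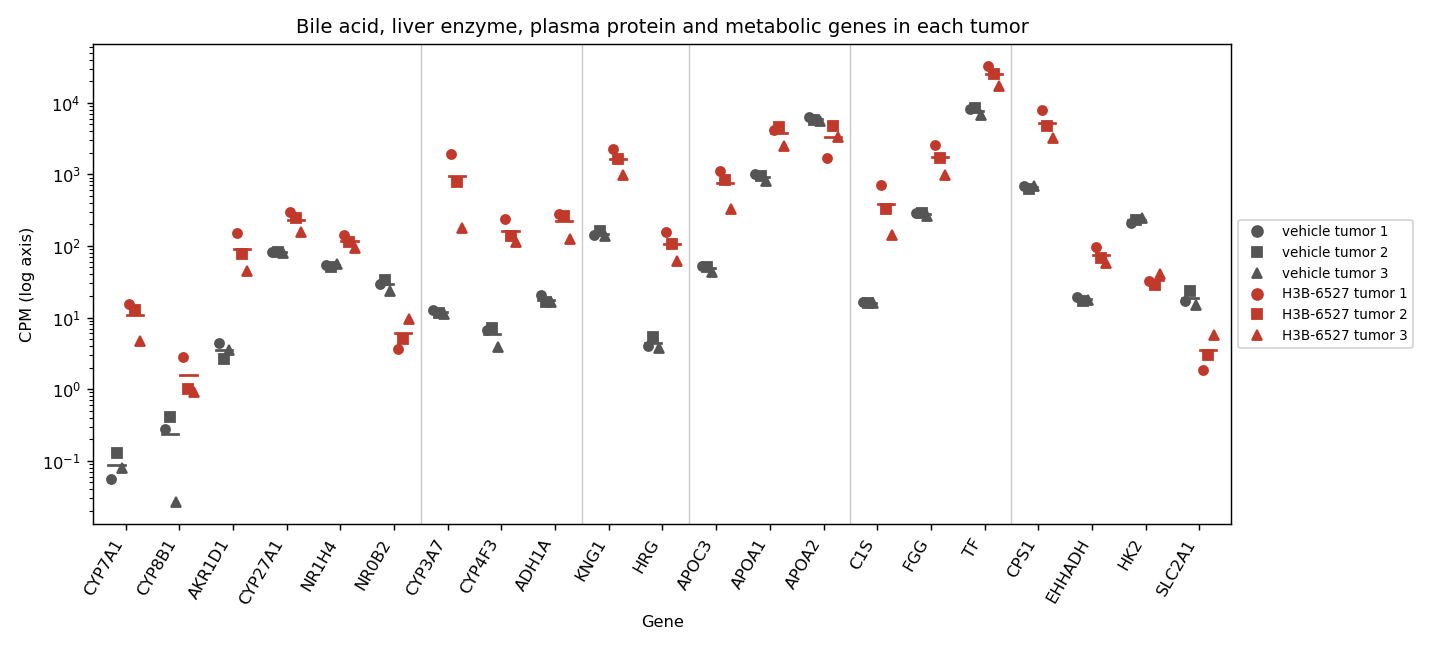
CPM on a log axis (vertical) of 21 genes of bile acid synthesis, liver enzymes, plasma proteins and metabolism (horizontal) in each of the 3 vehicle and 3 H3B-6527 tumors; symbols are single tumors and short bars group means. In most rising genes the treated tumors are ordered 1, 2, 3 from the top, and APOA2, NR0B2, HK2 and SLC2A1 lie below vehicle.

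Transcripts of nitrogen and amino acid metabolism changed in both directions. CPS1, the first enzyme of the urea cycle, was at 680.3, 622 and 679 CPM with vehicle and 7802, 4688 and 3243 CPM with H3B-6527 (log2 fold change 2.99 ± 0.28 (SE), edgeR adjusted p = 7.56e-06). NAGS, which makes the activator of CPS1, rose from 4.13, 4.18 and 3.49 CPM to 52.5, 32.9 and 19.4 CPM (log2 fold change 3.16 ± 0.34 (SE), edgeR adjusted p = 2.04e-05). In both genes the treated tumors were ordered 1, 2, 3 and the vehicle tumors were close together. GLS2, the liver glutaminase, rose (2.81 ± 0.33, 80 and 512 counts). The arginases ARG1 and ARG2 fell by 0.83 and 0.98. Over the list of 12 urea cycle and ammonia genes 8 rose and 3 fell. Amino acid breakdown enzymes rose in 26 of 42 cases and fell in 6 (median 0.70). GPT, AASS of lysine breakdown and DBT of branched-chain breakdown rose by 1.95, 1.97 and 1.05, while GOT1 and TDO2 of tryptophan breakdown fell by 1.52 and 0.99.

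Genes of sugar use went both ways. HK2, the hexokinase typical of tumors, was at 212, 228 and 249 CPM with vehicle and 32.2, 28.03 and 40.1 CPM with H3B-6527 (log2 fold change −2.78 ± 0.22 (SE), edgeR adjusted p = 3.16e-06). SLC2A1, the glucose transporter GLUT1, went from 17.1, 23.5 and 14.8 CPM to 1.83, 2.95 and 5.74 CPM (log2 fold change −2.45 ± 0.35 (SE), edgeR adjusted p = 0.000157), and the phosphofructokinase PFKM fell by 1.40. The liver-type genes KHK (ketohexokinase) and PFKL rose by 1.48 and 0.59. Of 28 glycolysis genes 14 fell and 9 rose (median −0.32). The insulin receptor substrates were opposed: IRS1 rose from 64.4, 71.6 and 65.2 CPM to 291, 238 and 198 CPM (log2 fold change 1.85 ± 0.14 (SE), edgeR adjusted p = 1.30e-06) and IRS2 fell from 199, 256 and 192 CPM to 52.4, 39.8 and 50.4 CPM (log2 fold change −2.18 ± 0.28 (SE), edgeR adjusted p = 7.75e-05). FOXO1, a factor restrained by insulin, and TRIB1 fell by 1.66 and 1.31, and the fasting factor CREB3L3 and pyruvate carboxylase (PC) rose by 1.65 and 0.96. In this list of 18 gluconeogenesis, glycogen and insulin signalling genes 10 rose and 4 fell. Of 10 tested genes of the IGF system 5 fell and 3 rose (median −0.51). IGFBP3, a carrier of insulin-like growth factors, fell from 73.1, 106 and 74.2 CPM to 1.98, 6.04 and 10.9 CPM (log2 fold change −3.79 ± 0.53 (SE), edgeR adjusted p = 0.000205). The 3 that rose were IGFBP4 (2.29), IGFALS (2.65) and IGF2 (0.61).

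Of 21 fatty acid oxidation genes 19 rose and 1 fell (median 0.84). EHHADH, a bifunctional enzyme of peroxisomes, was at 19.5, 17.2 and 17.4 CPM with vehicle and 95.7, 67.4 and 57.8 CPM with H3B-6527 (log2 fold change 2.03 ± 0.18 (SE), edgeR adjusted p = 4.43e-06), and the dehydrogenase ACADS rose by 1.75. All treated tumors exceeded all vehicle tumors. PDK4, which spares pyruvate, fell (−1.69 ± 0.39). Fat synthesis was divided, with 6 of 16 genes higher and 2 lower: DGAT2, which makes triglyceride, ACACB and GPAM rose by 2.73, 1.53 and 1.15, and ELOVL6 and ME1 fell by 1.36 and 1.73.

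In the cholesterol list 14 of 28 genes did not pass, 10 rose and 4 fell, with a median of −0.03 (0.06 without H3B-6527 tumor 1, −0.15 with library totals). The sterol exporters ABCG5 and ABCG8 rose by 1.23 and 1.48 and the synthesis enzyme LSS by 0.75, while the squalene synthase FDFT1 fell by 0.66. Of 50 nuclear subunits of respiratory complexes I to III, 43 did not pass, 6 fell and 1, SDHD, rose (0.46). NDUFS5 of complex I and UQCRH of complex III fell by 0.92 and 0.72. The number of subunits that fell was 2 without vehicle tumor 1 or 3 or H3B-6527 tumor 1 and 22 without H3B-6527 tumor 2, and 4 rose without H3B-6527 tumor 3.

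Cell cycle genes were lower to an extent that differed among the treated tumors. Of 37 genes of G2 and mitosis 31 fell and none rose (median −0.82). The medians of the 3 treated tumors were −1.36, −1.0 and −0.27, against −0.07 to 0.11 in vehicle tumors. PTTG1 (securin) was at 49.5, 51.5 and 61.02 CPM with vehicle and 14.3, 22.4 and 28.4 CPM with H3B-6527 (log2 fold change −1.32 ± 0.21 (SE), edgeR adjusted p = 0.000312). The checkpoint kinase BUB1B, the centromere histone CENPA and the kinesin KIF2C fell by 1.03, 1.32 and 1.15. MKI67, the proliferation marker Ki-67, was at 506, 587 and 557 CPM with vehicle and 226, 283 and 529 CPM with H3B-6527. Tumor 3 lay inside the vehicle range, tumors 1 and 2 well below it, and the difference fell just short of the threshold (log2 fold change −0.67 ± 0.26 (SE), edgeR adjusted p = 0.0511). Without tumor 3 it passed (−1.12, adjusted p = 0.000150), and it also passed with DESeq2 (adjusted p = 0.0152), voom (0.0252), library totals (0.0360), RLE size factors (0.0487) and the stricter filter (0.0490). The number of G2 and mitosis genes that fell was 19 without H3B-6527 tumor 1 and 19 without tumor 2.

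Of 38 DNA replication genes 19 fell and none rose (median −0.49). The tumor medians were −0.97, −0.52 and −0.14. RRM2, which makes deoxynucleotides, was at 44.4, 39.2 and 46.9 CPM with vehicle and 10.5, 10.3 and 20.4 CPM with H3B-6527 (log2 fold change −1.68 ± 0.24 (SE), edgeR adjusted p = 0.000157), and the helicase subunit MCM7 and the kinase subunit DBF4 fell by 0.95 and 0.70. The number that fell was 30 without H3B-6527 tumor 3, 10 without tumor 2, 11 without vehicle tumor 1 and 10 without vehicle tumor 3, and 1 rose without H3B-6527 tumor 1.

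In the list of D cyclins, CDK inhibitors and RB-E2F genes, 6 of 21 fell, CCND1 and CDK6 (−1.24) among them, and 4 rose. CDKN2B (p15), an inhibitor of CDK4 and CDK6, fell from 24.1, 28.2 and 26.1 CPM to 2.34, 2.49 and 3.23 CPM (log2 fold change −3.30 ± 0.36 (SE), edgeR adjusted p = 2.35e-05). CDKN1C (p57) and CDKN1B (p27) rose by 0.70 and 0.37; the CDKN1B call was lost with library totals (0.25, adjusted p = 0.0564). CDKN1A (p21) was at 1.79, 1.68 and 2.29 CPM with vehicle and 1.75, 0.949 and 1.298 CPM with H3B-6527, the groups overlapped, and the difference did not pass (log2 fold change −0.52 ± 0.35 (SE), edgeR adjusted p = 0.229). Without H3B-6527 tumor 3, 11 members fell, and without vehicle tumor 1 or 2 or H3B-6527 tumor 1, 2 rose. Of 13 tested genes of the BCL2 family list, which also holds BCL6 from outside that family, 4 fell and 4 rose. The survival genes BCL2L1 and MCL1 and the killer gene BBC3 (PUMA) fell by 1.22, 0.92 and 1.26, and BCL2L11 (BIM), a killer gene that ERK signalling keeps low, rose from 5.95, 6.904 and 6.65 CPM to 12.1, 11.3 and 10.5 CPM (log2 fold change 0.80 ± 0.12 (SE), edgeR adjusted p = 0.000119). The repressor BCL6 rose by 0.60.

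Transcripts of ribosome assembly factors and cytosolic ribosomal proteins were lower. Of 38 genes of ribosome assembly and RNA polymerase I 35 fell and none rose (median −0.87), and all 3 treated tumors were alike (−1.04, −0.84 and −0.80). DDX21, a nucleolar helicase, was at 136, 115 and 140.2 CPM with vehicle and 29.8, 33.4 and 40.5 CPM with H3B-6527 (log2 fold change −1.92 ± 0.13 (SE), edgeR adjusted p = 8.18e-07). The assembly factors BYSL, PPAN and TSR1 fell by 1.497, 1.70 and 1.19. Of 77 cytosolic ribosomal protein genes 71 fell and none rose (median −0.57). None reached 2-fold. RPS24 and RPL15 fell by 0.96 and 0.69. Here tumor 2, not tumor 3, lay nearest to vehicle (tumor medians −0.98, −0.26 and −0.56). Reads of these genes can be shared with processed pseudogenes. Of 78 mitochondrial ribosomal proteins 18 fell, close to the share of all tested genes that fell (24.3%), and none rose (median −0.19), MRPL42 and MRPS23 by 0.59 and 0.74. That number was 11 without vehicle tumor 1 or 3 and 35 without H3B-6527 tumor 2, and 2 rose without H3B-6527 tumor 1. Of 35 proteasome subunits 25 fell and 2 rose (median −0.37). PSMD14 and PSMD6 fell by 0.74 and 0.51 and PSMD5 rose (0.69 ± 0.09). Without vehicle tumor 3, 16 fell, and 1 rose without vehicle tumor 2 or 3 or H3B-6527 tumor 2.

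Stress genes were lower in part. Of 30 genes of the ATF4 stress response and tRNA synthetases 19 fell and 3 rose (median −0.55). TRIB3, a pseudokinase that ATF4 induces, was at 27.3, 29.2 and 31.1 CPM with vehicle and 5.61, 5.204 and 7.71 CPM with H3B-6527 (log2 fold change −2.26 ± 0.20 (SE), edgeR adjusted p = 4.76e-06). The arginine transporter SLC7A1 and the glycyl-tRNA synthetase GARS fell by 2.004 and 0.96, while PSPH of serine synthesis and ATF5 rose by 0.90 and 1.35. In the endoplasmic reticulum list 13 of 20 genes did not pass. The 5 that fell, close to the share of all tested genes that fell (24.3%), included the sensor ERN1 (−0.63). The 2 that rose, HERPUD1 (0.83) and EDEM1 (0.53), were a smaller share than over all tested genes (25.2%). The number that fell was 3 without vehicle tumor 3 or H3B-6527 tumor 1 and 8 without H3B-6527 tumor 3. Of 18 cytosolic heat shock chaperones 9 fell, the chaperonin subunit CCT2 (−0.75) and HSPA4 (−0.67) among them, and 3 rose, with DNAJB4 at 0.62. Without vehicle tumor 3, 3 fell, and without vehicle tumor 1 or H3B-6527 tumor 2, 1 rose.

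Hypoxia genes outside glycolysis were divided, with 6 of 18 higher and 5 lower. LOX, a collagen cross-linking enzyme, fell from 1.98, 3.85 and 2.47 CPM to 0.103, 0.1897 and 0.419 CPM on 316 and 21 counts (log2 fold change −3.65 ± 0.42 (SE), edgeR adjusted p = 1.89e-05), and HIF1A, the oxygen-regulated factor, fell by 0.86. NDRG1 was at 20.8, 66.4 and 16.2 CPM with vehicle and 258, 191 and 167 CPM with H3B-6527 (log2 fold change 2.58 ± 0.46 (SE), edgeR adjusted p = 0.000875). Vehicle tumor 2 stood well above the other vehicle tumors, yet below all treated tumors. BNIP3, a mitophagy receptor, rose by 0.67. The number that fell was 3 without vehicle tumor 2 or H3B-6527 tumor 1 or 2.

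Of 12 tested MHC class I genes, which serve antigen presentation, none changed by 2-fold or more. In this list 6 rose, HLA-C (0.62 ± 0.15), HLA-E (0.36 ± 0.12) and TAPBP (0.45 ± 0.09) among them, and the peptide transporter subunit TAP2 was lower (−0.34 ± 0.12). Without vehicle tumor 2 or H3B-6527 tumor 2, 3 rose, without vehicle tumor 3, 2 rose, and the TAP2 call was lost without any of these or H3B-6527 tumor 1 (adjusted p = 0.136, 0.109, 0.0798 and 0.0580). The HLA-E call was lost without vehicle tumor 3 or H3B-6527 tumor 2 (0.144 and 0.130). HLA genes share reads among themselves. Of 22 interferon-stimulated genes 10 rose and 2 fell (median 0.40), 4 and 1 of them by 2-fold or more. IFIT1, which binds viral RNA, rose from 0.391, 0.611 and 0.473 CPM to 4.78, 3.497 and 2.51 CPM (log2 fold change 2.87 ± 0.28 (SE), edgeR adjusted p = 5.96e-06), and the factor STAT2 by 0.84. ISG20, a ribonuclease, fell by 1.41.

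Of 15 epithelial-mesenchymal and progenitor genes 9 fell and 3 rose (median −0.68). PROM1 (CD133), a surface marker of progenitor-like cells, was at 179.8, 177 and 201 CPM with vehicle and 21.9, 30.2 and 61.3 CPM with H3B-6527 (log2 fold change −2.31 ± 0.29 (SE), edgeR adjusted p = 6.31e-05). SOX9, a biliary and progenitor factor, fell from 135, 117 and 129.9 CPM to 54.1, 49.7 and 40.6 CPM (log2 fold change −1.40 ± 0.21 (SE), edgeR adjusted p = 0.000193), and SOX4 and the keratin KRT18 by 1.73 and 0.86. CDH1 (E-cadherin), the adhesion protein of epithelia, rose from 285, 309 and 256 CPM to 1056, 671 and 501 CPM (log2 fold change 1.39 ± 0.21 (SE), edgeR adjusted p = 0.000194). SNAI2 (SLUG), known as a repressor of CDH1, rose too (0.86 ± 0.24). Neither gene overlapped between the groups.

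**Figure D4:**
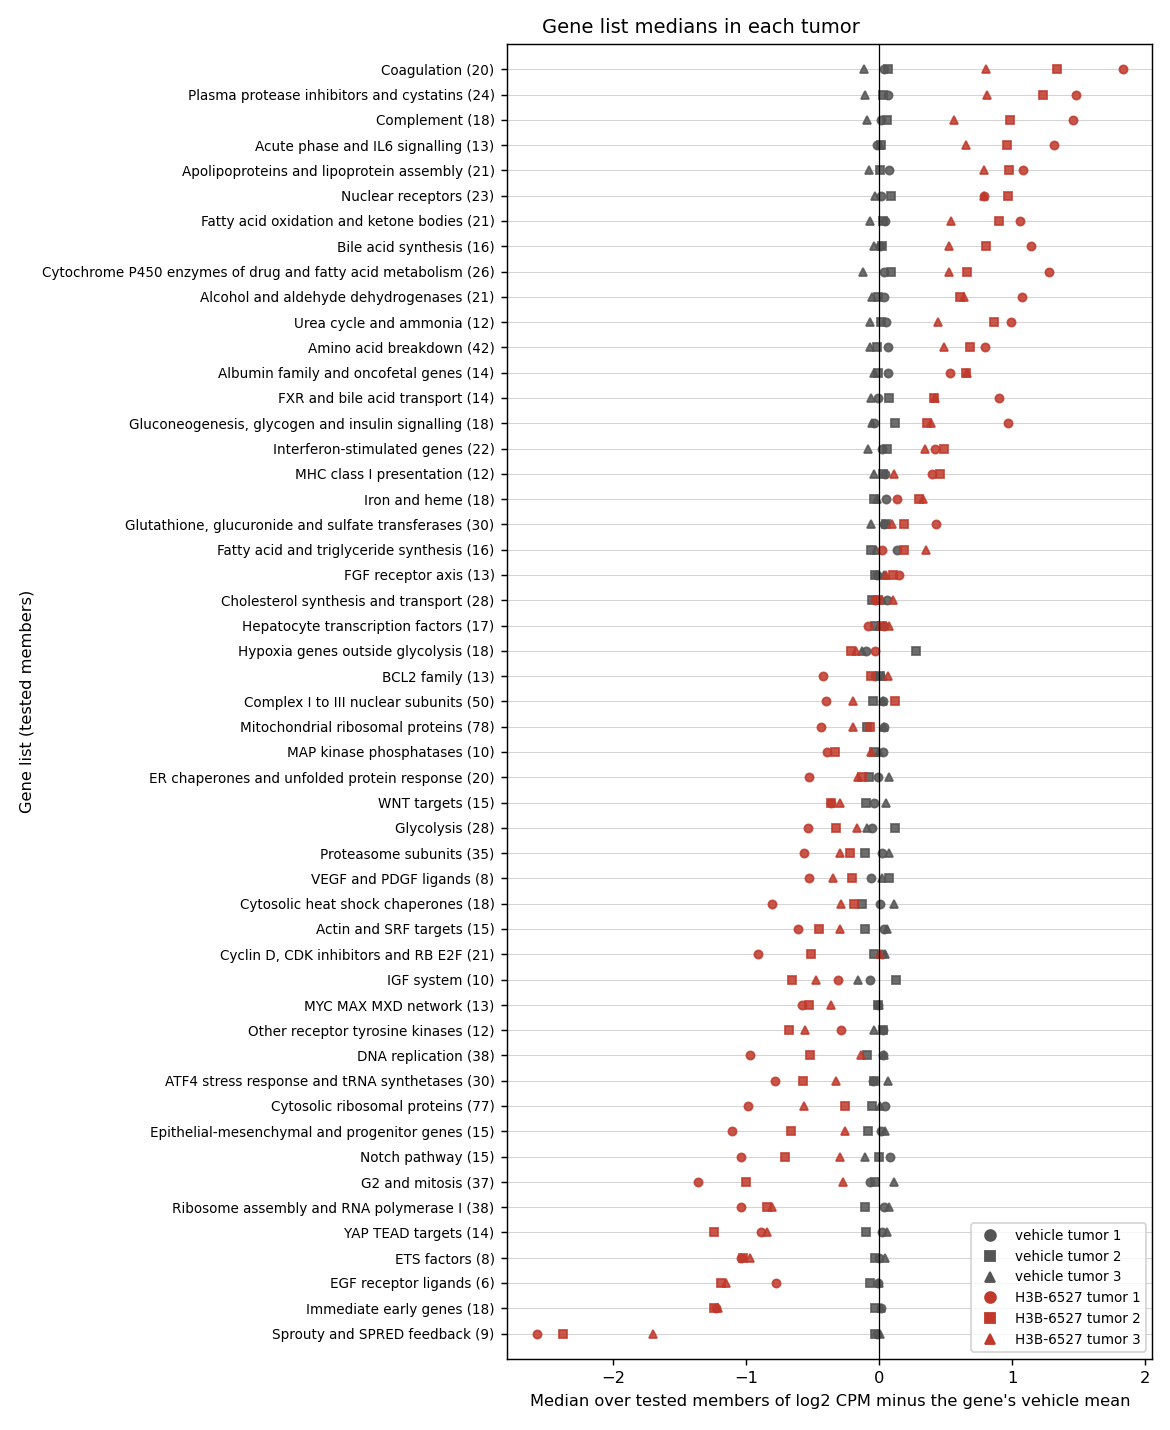
Median over the tested members of each of 51 gene lists (number in brackets, vertical axis) of log2 CPM minus the gene's vehicle mean (horizontal axis), in each vehicle (grey) and H3B-6527 (red) tumor; each symbol is a tumor. Coagulation lies highest and Sprouty and SPRED feedback lowest, and tumor 3 lies nearer to vehicle than tumors 1 and 2 for mitosis (−0.27 against −1.36 and −1.0) but not for immediate early genes (−1.21 against −1.23 and −1.24).

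The same drug could be examined on a second background, since the series holds tumors given lenvatinib and tumors given lenvatinib with H3B-6527. These 6 libraries share no tumor with the comparison above, though all 12 shared 1 estimate of the spread. Combination tumors had 3020 genes higher (19.1%) and 3309 lower (20.9%) than lenvatinib tumors. Of the genes higher with H3B-6527 alone 67.9% were also higher here (2706 genes, 89.6% of those higher here), and of the genes lower 75.1% were also lower (2884 genes, 87.2% of those lower here). No gene passed in opposite directions. Of the 1445 genes that rose by 2-fold or more with H3B-6527 alone, 98.9% had the same sign and 81.6% passed in the same direction on lenvatinib. Of the 1192 that fell these shares were 99.1% and 83.6%. The change was smaller on lenvatinib for 90.9% of the rises (median 1.13 against 1.48) and 89.7% of the falls (−1.16 against −1.54); these genes were chosen for a large change with H3B-6527 alone.

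For the members described above, CYP7A1 changed by 6.49 on the lenvatinib background against 6.91 without it, and KLB by 1.77 against 2.37. LFNG changed by −5.40 against −6.29, EGR1 by −2.47 against −4.58 and SPRY4 by −2.83 against −4.80. MKI67, which did not pass above, passed here (−0.94), whereas FGFR4 (−0.18) and SLCO1B3 (−0.17) did not. The difference between the backgrounds was tested as non-additivity on the log2 scale. With edgeR 0 genes passed, and 854 had an unadjusted p under 0.05. With DESeq2 18 genes passed (817 unadjusted) and with voom 0 (888 unadjusted). None of the genes described here is therefore shown by edgeR to respond differently to H3B-6527 in the presence of lenvatinib.

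**Figure D5:**
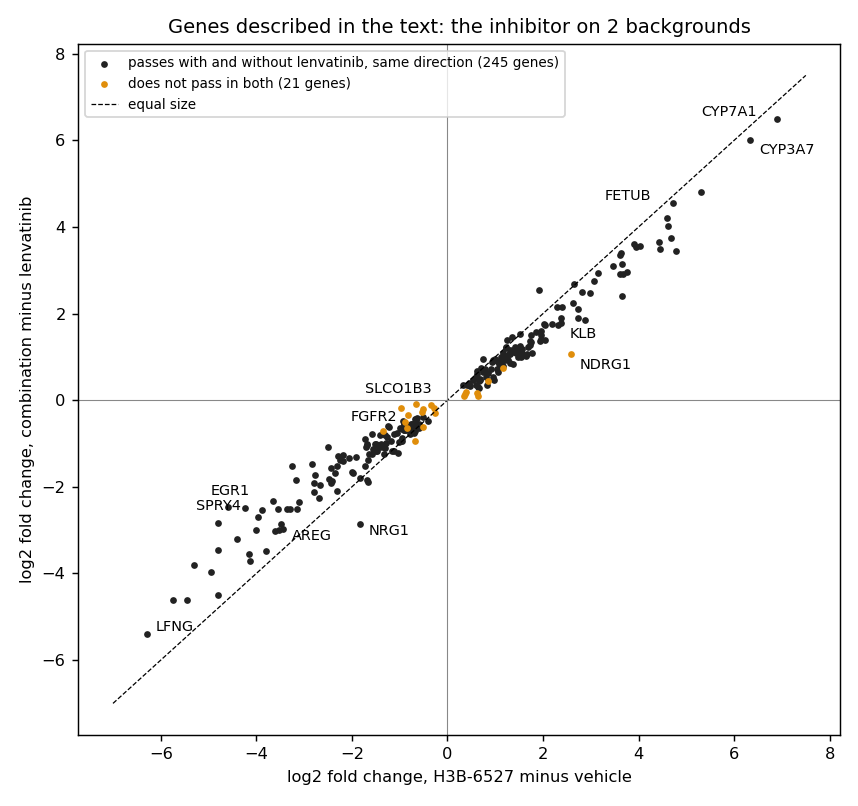
Log2 fold change of H3B-6527 minus vehicle (horizontal axis) against combination minus lenvatinib (vertical axis) for the 266 genes described; each point is a gene and the dashed line marks equal size. The 245 black points pass in both comparisons in the same direction and the 21 orange ones do not, NDRG1 and SLCO1B3 among them.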

How the data were processed

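RNA of 12 Hep3B xenograft tumors was sequenced, each library on 4 lanes. The deposited table holds expected counts, which the authors made with kallisto, per the submitters' processing notes, and which are given per gene symbol without scaling (39.98% of values were not whole). STAR, GRCh37 and GRCm38 are also named, per the submitters' processing notes; versions, the annotation and the handling of mouse reads are not given in the sources used here. Although labelled as mouse, the table lists human symbols, 9157 of them without counts. No human genome was used, so sequences, coordinates, gene lengths and the motif description planned for promoters were not analysed here.

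Counts were rounded, filtered with filterByExpr on the 4 groups, scaled by TMM and fitted with edgeR 4.0.16 (robust quasi-likelihood, all 12 libraries) in R 4.3.3. Groups followed the labelled treatment. P-values were 2-sided and adjusted over all 15836 genes, with a threshold of 0.05. Each SE was derived from the test, as the absolute log2 fold change divided by the square root of the quasi-likelihood F statistic. Alternatives were DESeq2 1.42.0, voom in limma 3.58.1, RLE factors, library totals, no filter, a filter of at least 10 counts in every library of 1 group, a fit of the 6 libraries alone, and leaving out each tumor. A floor of 3 counts was 0.0764 to 0.126 CPM in these libraries. Intervals are 95% exact binomial, pool the 3 tumors, and cover counting error only; molecular identifiers are not mentioned in the labels.

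The comparison, the 51 gene lists, the 8 marker lists and the tests were chosen with earlier results of these data known. Named genes are the 15 largest rises and falls (mean log2 CPM of 1 or more, no overlap), genes fixed by name, and the members of a list whose p was smallest or largest or whose call went against the majority. Of these, 266 are described; CFHR3, CFHR4 and a read-through of CYP3A7 are left out as near-identical copies, and some further genes are not reported here. Tumors came from separate mice and are numbered in the order of deposit, which pairs nothing.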

Additional observations from a re-analysis of the deposited data

How the results depend on the processing

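The number of genes higher with H3B-6527 stayed between 3022 (library totals) and 4175 (without H3B-6527 tumor 3), and of genes lower between 3082 (the 6 libraries fitted alone) and 4960 (library totals). Leaving out 1 tumor at a time gave 3239 to 4175 higher and 3105 to 4211 lower. Library totals lowered the share of calls that were higher from 50.9% to 37.9%. The count of genes past the non-additivity contrast was 0 with edgeR, voom and library totals and 18 with DESeq2; the cause was not tested. Of the 262 described genes that passed, 253 kept call and direction under every alternative that gave them a value, and none of the 266 changed sign under any alternative. The exceptions (FGFR4, ERBB2, INSR, CEBPD, APOA2, CP, CDKN1B, HLA-E and TAP2) are given beside their results. HLA-E also lost its call with library totals (0.23) and in the fit of the 6 libraries (0.36), FGFR4 (−0.28) and TAP2 (−0.33) in the fit of the 6 libraries, and TAP2 with no filter (−0.35). Genes with few counts, such as CYP7A1 in vehicle tumors, are limited by depth. No paired analysis was possible because the labels carry no replicate numbers. The promoter motif description was not run.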

Other observations

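In some gene families the order of the H3B-6527 tumors differed from that of most genes that changed, in which tumor 3 lay nearest to vehicle. The families were chosen after their values were seen and carry no test. Of 77 cytosolic ribosomal protein genes, 76 were lowest in H3B-6527 tumor 1 and 75 highest in tumor 2. Among 50 nuclear subunits of respiratory complexes I to III, 37 were lowest in tumor 1 and 47 highest in tumor 2, and tumor 3 was the highest for 2 genes in each of these families. Among 35 proteasome subunits 32 were lowest in tumor 1, while 18 were highest in tumor 2 and 16 in tumor 3. Of 78 mitochondrial ribosomal protein genes 53 were lowest in tumor 1 and 55 highest in tumor 2. Of 18 cytosolic heat shock chaperones 13 were lowest in tumor 1, while 11 were highest in tumor 2 and 6 in tumor 3. The 20 genes of ER chaperones and the unfolded protein response did not differ in this way. Of these 13 were lowest in tumor 1, and 10 were highest in tumor 3 against 7 in tumor 2.

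The host genes of small nucleolar RNAs, whose spliced transcripts are known to turn over quickly, followed the order of most genes, with tumor 1 farthest from vehicle. Over 16 tested genes (GAS5 and the SNHG genes) the median shift from the vehicle mean was −1.37, −0.27 and −0.08 on the log2 scale in H3B-6527 tumors 1, 2 and 3. In these tumors 13, 11 and 7 of the genes lay below all vehicle tumors, and 1, 3 and 8 lay above all vehicle tumors. SNHG3 was at 3244, 2892 and 3047 CPM in the vehicle tumors and 935, 2782 and 3250.2 CPM in the H3B-6527 tumors. SNHG1 was at 35.6, 37.3 and 33.8 CPM and at 13.3, 30.0 and 44.2 CPM. In both genes tumor 1 alone was far below vehicle. GAS5 was low in all 3, at 10.9, 12.96 and 12.6 CPM against 27.5, 26.5 and 28.1 CPM. RNA quality values were not used here, and their part in these differences was not tested.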
